A study of Homo sapiens with 6 samples.

Results

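SR proteins and heterogeneous nuclear ribonucleoproteins (hnRNPs) are the 2 large families of RNA-binding proteins that steer splice-site choice, and the mRNAs of both were followed in KYSE510 cells, an established line of oesophageal squamous cell carcinoma, with and without a knockdown. The genes were taken by symbol, as SRSF or HNRNP followed by the member's number or letter, and the 123 pseudogenes with such names were left out. This gave 38 of the 62700 genes in the count table, 12 SR protein genes and 26 hnRNP genes. Of these, 32 had enough counts to be tested (11 SR protein genes and 21 hnRNP genes), out of 19682 tested genes. The other 6 were SRSF12, HNRNPA1L2, HNRNPCL1, HNRNPCL2, HNRNPCL3 and HNRNPCL4, with 0 to 2 counts in a library; HNRNPA1L2, HNRNPCL2 and HNRNPCL4 were listed at 0 in all 6.

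The study compared 3 libraries of cells with a control shRNA (shControl, genotype WT in the labels) with 3 libraries of cells with an shRNA against a ribonuclease (shRNH1, genotype RNH1 knockdown), to set up a model of induced R-loops. An R-loop is an RNA-DNA hybrid with a displaced DNA strand. All 6 libraries were KYSE510 cells grown in medium with 10% FBS and made from poly(A) RNA. The labels do not say whether the shRNA lines were clones or pools, how the vector was delivered, how long the knockdown lasted, or how the cultures of the 3 biological replicates were separated.

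SR proteins carry RNA recognition motifs and a domain of repeated arginine and serine, bind mostly to exonic enhancers and help the spliceosome to recognise the neighbouring splice sites. hnRNPs coat nascent transcripts through RNA recognition motifs, KH domains or other RNA-binding parts, and many of them block splice sites. Both families package the transcript as it leaves the polymerase, which is why they are studied together with R-loops, and many members limit their own expression by splicing their pre-mRNA into forms with a premature stop codon.

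Library totals were 31394687 to 41103220 counts. In the shControl libraries RNASEH1, which encodes the ribonuclease that cuts the RNA of RNA-DNA hybrids, had 1357, 1344 and 1015 counts. The shRNH1 libraries had 251, 247 and 232, a log2 fold change of -2.14 (SE 0.12). Its adjusted p was 1.61e-13, from the quasi-likelihood test of edgeR, which gave all adjusted p below unless another tool or test is named, with the Benjamini-Hochberg method over the 19682 genes. The ribonuclease inhibitor gene, whose own symbol is RNH1, had a log2 fold change of -0.19 (adjusted p = 0.221). Of 6 squamous markers TP63 ran from 47.8 to 57.4 CPM over the 6 libraries. KRT5, KRT14 and KRT6A were lower in shRNH1 and SOX2 was higher, and the 6 markers summed to 155 to 176 CPM in shControl and 86.4 to 94.5 CPM in shRNH1. Leukocyte markers summed to at most 0.333 CPM and fibroblast markers to at most 0.0885 CPM, with COL1A2 listed at 0 in all libraries; endothelial markers summed to 18.4 to 21.8 CPM, with PECAM1 higher in shRNH1 (log2 fold change 0.51, adjusted p = 0.0234) and CDH5 (-0.26) and VWF (-0.42) not past the threshold. KRT8, KRT18, KRT20 and CDX2, markers of simple epithelium, summed to 5519 to 7064 CPM in shControl and 3844 to 4066 CPM in shRNH1. Nearly all of this sum was KRT8 and KRT18, both lower in shRNH1. KRT20 had at most 0.411 CPM and did not pass (log2 fold change 0.15, adjusted p = 0.886), and CDX2 had at most 1 count in a library. The part of these marker shifts in the values below was not tested.

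Most mRNAs of both families stayed within about 0.2 on the log2 scale of their shControl level, while SRSF6, HNRNPAB and HNRNPA3 fell to between 69.1% and 71.4% of it. SRSF2 and HNRNPH3 fell less and HNRNPH2 rose. In all, 6 of the 32 tested genes passed an adjusted p of 0.05, 5 lower and 1 higher in shRNH1. Among all tested genes 27.6% passed, 12.3% lower and 15.3% higher, and among the most highly expressed 3937 genes (1 of 5 equal groups), which held 24 of the 32, 40.0% passed. The 3 shControl and 3 shRNH1 values did not overlap for 8 of the 32 genes, against 40.0% of all tested genes. By these counts the share past the threshold in the 2 families was not above the background. Their median log2 fold change was -0.10, the same as in that most highly expressed group (-0.10), against 0.02 over all tested genes. That trend with expression level and the scaling matter for the small changes: with library size as the only scaling the median of all tested genes moved from 0.02 to 0.13, genes past the threshold split into 4065 higher and 1433 lower instead of 3006 and 2418, and the hnRNP median turned to 0.013.

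**Figure D1:**
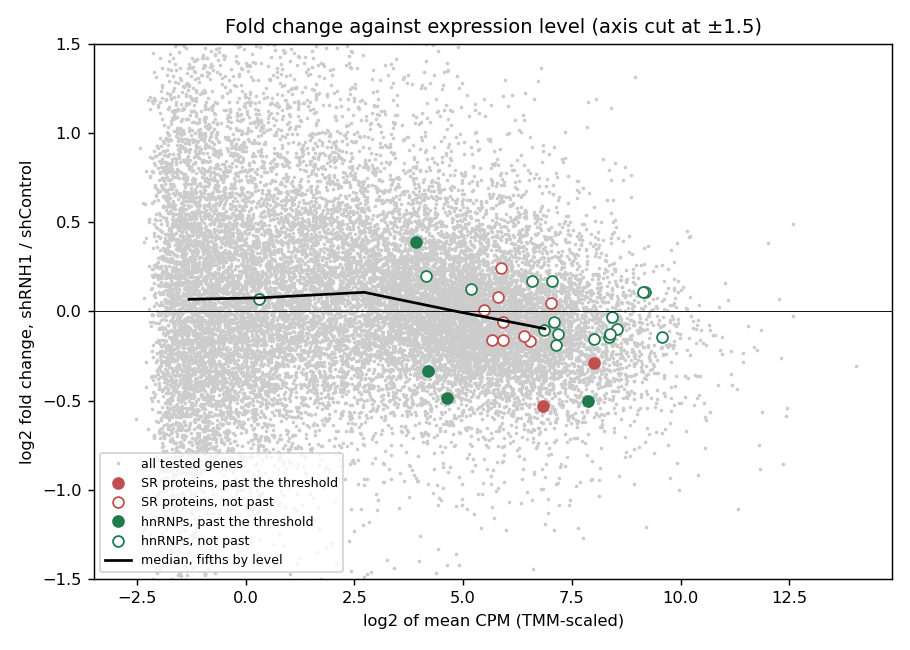
Log2 fold change (shRNH1 over shControl) against log2 mean CPM for all tested genes (grey), SR protein genes (red) and hnRNP genes (green); filled symbols passed the threshold and the black line joins the medians of 5 equal groups by expression. The median runs from 0.08 in the lowest group to -0.10 in the highest, and most of the SR protein and hnRNP genes lie near it.

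Among the SR protein genes 2 of 11 passed the test, both lower, with a median log2 fold change of -0.14. SRSF6, whose protein binds exonic enhancers and also acts in the splicing of tau and of genes of skin homeostasis, had 143, 130 and 132 CPM in the shControl libraries and 97.3, 83.7 and 99.0 CPM in the shRNH1 libraries. Every shRNH1 library lay below every shControl library. The log2 fold change was -0.53 (SE 0.094, 95% interval -0.73 to -0.34, adjusted p = 8.98e-05), and SRSF6 passed in all 18 other settings, between -0.60 and -0.42. The gene lies at chr20:43457928-43464247 on GRCh38.

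SRSF2, also known as SC35, is a nuclear SR protein that marks splicing speckles and is mutated in myeloid neoplasms. It had 279, 269 and 299 CPM in shControl and 218, 240 and 236 CPM in shRNH1. The groups did not overlap, and the log2 fold change was -0.29 (SE 0.092, 95% interval -0.48 to -0.10, adjusted p = 0.0203). It missed the threshold when shControl replicate 1 was left out (adjusted p = 0.0733), and likewise without shRNH1 replicate 1 (0.106) or without shRNH1 replicate 3 (0.0597). The same held for library size alone (-0.17, 0.110), a replicate block (0.0644) and an expression level offset (-0.16, 0.207). At its locus, chr17:76734115-76737374, 36.7% of the SRSF2 exon bases are shared with exons of MFSD11 on the other strand, which rose by 0.37 on the log2 scale (adjusted p = 0.0189); MFSD11 had at most 607 counts in a library against at least 7381 for SRSF2.

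SRSF1, the founding member of the family, shuttles between nucleus and cytoplasm and is known for guarding against R-loops in other cells. It had 60.3, 52.7 and 47.4 CPM in shControl and 58.3, 54.3 and 77.2 CPM in shRNH1. Only the third shRNH1 library stood above the highest shControl library, and the log2 fold change of 0.24 (SE 0.11, 95% interval 0.01 to 0.48) did not pass (adjusted p = 0.123). It passed with library size alone (0.35, adjusted p = 0.0373) and without shRNH1 replicate 2 (0.34, 0.0382), but not in the other 16 settings. Over all 18 it lay between 0.07 and 0.35, with an adjusted p of up to 0.717. SRSF4, with SRSF5 and SRSF6 one of the larger SR proteins, had 95.1, 96.1 and 104 CPM in shControl against 90.4, 89.2 and 84.2 CPM in shRNH1. The groups did not overlap, but the difference of -0.16 (95% interval -0.35 to 0.02) did not pass (adjusted p = 0.189).

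The remaining tested SR protein genes lay between -0.16 and 0.08. SRSF3, the smallest SR protein and an export adaptor, had a log2 fold change of 0.05 (95% interval -0.17 to 0.26), and SRSF7, its close relative with a zinc knuckle, -0.16 (-0.36 to 0.04). SRSF5 had -0.16 (-0.36 to 0.04) and SRSF9, a short relative of SRSF1, -0.14 (-0.32 to 0.05). SRSF8, an SRSF2-like gene, had 0.01 (-0.20 to 0.22). SRSF10, a splicing repressor when dephosphorylated, had 0.08 (-0.14 to 0.30), and SRSF11 had -0.06 (-0.24 to 0.12). For each of these 7 genes the shControl and shRNH1 libraries overlapped.

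**Figure D2:**
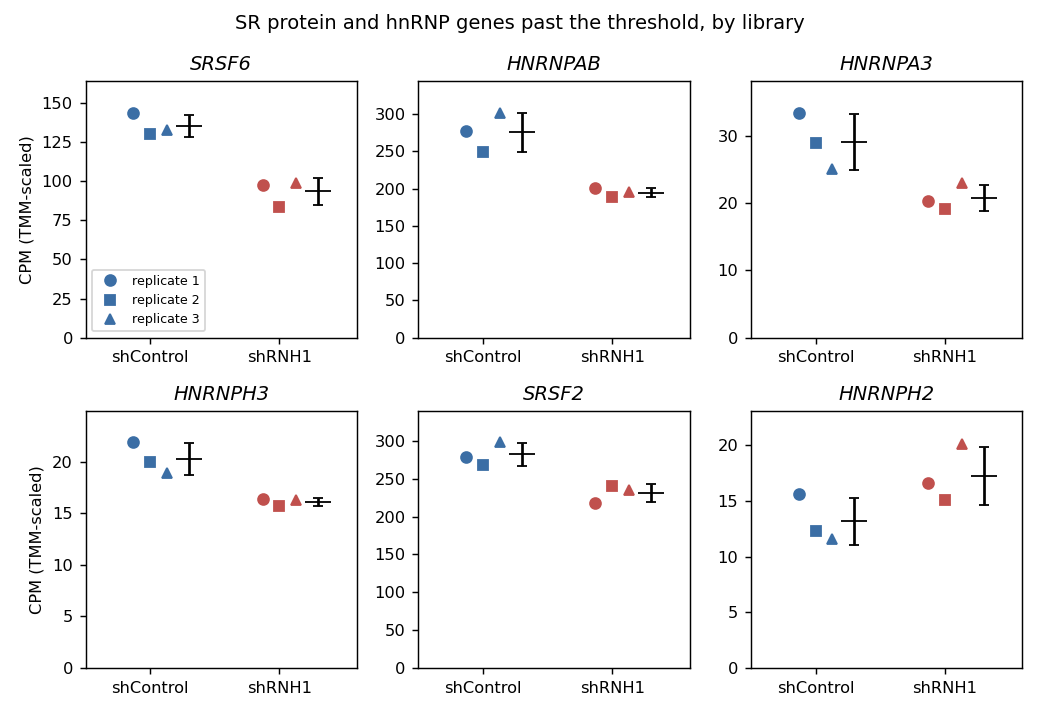
CPM (TMM-scaled, axes from 0) in each library of the 6 genes that passed the threshold; symbols are replicates and the bar beside them is the mean ± SD of 3 libraries. The groups are apart for SRSF6, HNRNPAB, HNRNPA3, HNRNPH3 and SRSF2 and overlap for HNRNPH2.

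Among the hnRNP genes 4 of 21 passed, 3 lower and 1 higher, with a median log2 fold change of -0.10 that turned to 0.013 with library size alone and to 0.029 with an offset for expression level. HNRNPAB and HNRNPA3 held the larger falls, while the other tested genes with a symbol that starts with HNRNPA did not pass. HNRNPAB, which encodes the CArG box-binding factor A and binds RNA as well as single-stranded DNA, had 277, 249 and 301 CPM in shControl and 201, 188 and 196 CPM in shRNH1. All shRNH1 libraries lay below all shControl libraries and close to each other. The log2 fold change was -0.50 (SE 0.095, 95% interval -0.70 to -0.31, adjusted p = 0.000218), with a range of -0.58 to -0.38 over the 18 other settings, in each of which it passed. Of the HNRNPAB exon bases at chr5:178204507-178211163, 9.14% are shared with PHYKPL on the other strand, which fell by 0.33 on the log2 scale (adjusted p = 0.0178).

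HNRNPA3 encodes a protein that also binds the G-rich hexanucleotide repeat RNA of C9orf72. It had 33.3, 28.9 and 25.0 CPM in shControl and 20.3, 19.1 and 22.9 CPM in shRNH1. The lowest shControl library stood above the highest shRNH1 library. The log2 fold change was -0.49 (SE 0.11, 95% interval -0.72 to -0.26, adjusted p = 0.00155), and it passed in all 18 other settings, between -0.58 and -0.38. HNRNPA3 lies at chr2:177212563-177223958.

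HNRNPA1, the best known splicing silencer of the family, had 305, 273 and 239 CPM in shControl and 253, 218 and 263 CPM in shRNH1. The groups overlapped and the log2 fold change was -0.15 (95% interval -0.37 to 0.06, adjusted p = 0.292). HNRNPA2B1, which with HNRNPA1 and the C proteins forms the core particle, had 136, 125 and 110 CPM in shControl and 142, 127 and 148 CPM in shRNH1, a log2 fold change of 0.17 (-0.03 to 0.37, adjusted p = 0.215). It passed with library size alone (0.28, adjusted p = 0.0372). HNRNPA0 lay at -0.06 (-0.25 to 0.13). HNRNPA1L3, an HNRNPA1-like gene with 0.895 to 1.64 CPM, lay at 0.07 and had the widest interval of the tested hnRNP genes, -0.55 to 0.69.

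The F/H group recognises runs of guanines, and its 4 genes did not move together. HNRNPH3 had 21.9, 20.0 and 18.9 CPM in shControl and 16.4, 15.7 and 16.3 CPM in shRNH1. The groups did not overlap and the log2 fold change was -0.33 (SE 0.10, 95% interval -0.55 to -0.12, adjusted p = 0.0180). It did not pass with library size alone (-0.22, adjusted p = 0.166), without shControl replicate 1 (0.116) or without shRNH1 replicate 1 (0.0528). HNRNPH2, the X-linked copy at chrX:101408295-101414133, was the single gene of both families that rose, with 15.6, 12.3 and 11.6 CPM in shControl and 16.6, 15.0 and 20.1 CPM in shRNH1. Its groups overlapped, since shControl replicate 1 lay above shRNH1 replicate 2. The log2 fold change was 0.39 (SE 0.13, 95% interval 0.13 to 0.65, adjusted p = 0.0225). It stayed between 0.26 and 0.53 in the other settings but missed the threshold in 7 of 18, among them DESeq2 (0.36, adjusted p = 0.0662), and the fits without shControl replicate 2 (0.0986), shControl replicate 3 (0.0912), shRNH1 replicate 1 (0.0641) and shRNH1 replicate 3 (0.26, 0.167). HNRNPF had 361, 342 and 335 CPM in shControl against 326, 304 and 310 CPM in shRNH1, groups that did not overlap, with a log2 fold change of -0.14 (adjusted p = 0.274). HNRNPH1 had 175, 144 and 133 CPM against 127, 128 and 142 CPM, groups that overlapped, with a log2 fold change of -0.19 (adjusted p = 0.180); it passed without shControl replicate 3 (-0.27, adjusted p = 0.0383) and when GC content and transcript length were offset (-0.28, 0.0405).

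None of the other 11 tested hnRNP genes passed edgeR's test, DESeq2 or limma-voom, none had an edgeR p below 0.05 before adjustment, and their log2 fold changes lay between -0.14 and 0.20. HNRNPC, whose tetramers measure the length of nascent RNA and mask uridine tracts, had 606, 539 and 529 CPM in shControl and 630, 543 and 636 CPM in shRNH1, a log2 fold change of 0.11 (95% interval -0.09 to 0.32). HNRNPK, a poly(C)-binding protein with KH domains, also had 0.11 (-0.10 to 0.32). With an offset for expression level both passed, at 0.28 (adjusted p = 0.0395 for HNRNPC and 0.0447 for HNRNPK). HNRNPU, the scaffold attachment factor that binds chromatin and RNA, had -0.03 (-0.25 to 0.19), and HNRNPUL1, its relative in DNA damage signalling, -0.14 (-0.35 to 0.07). HNRNPL, which binds CA repeats, had -0.10 (-0.30 to 0.10), HNRNPM -0.13 (-0.35 to 0.09) and HNRNPD, the AU-rich element binder AUF1, -0.13 (-0.33 to 0.07). The other 4 were HNRNPDL at -0.11, HNRNPLL at 0.12, HNRNPR at 0.17 and HNRNPUL2 at 0.20. HNRNPUL2 had 17.2, 17.3 and 15.3 CPM in shControl and 17.6, 18.5 and 20.9 CPM in shRNH1, so its groups did not overlap, but its adjusted p was 0.190. HNRNPR passed with library size alone (0.28, adjusted p = 0.0258).

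**Figure D3:**
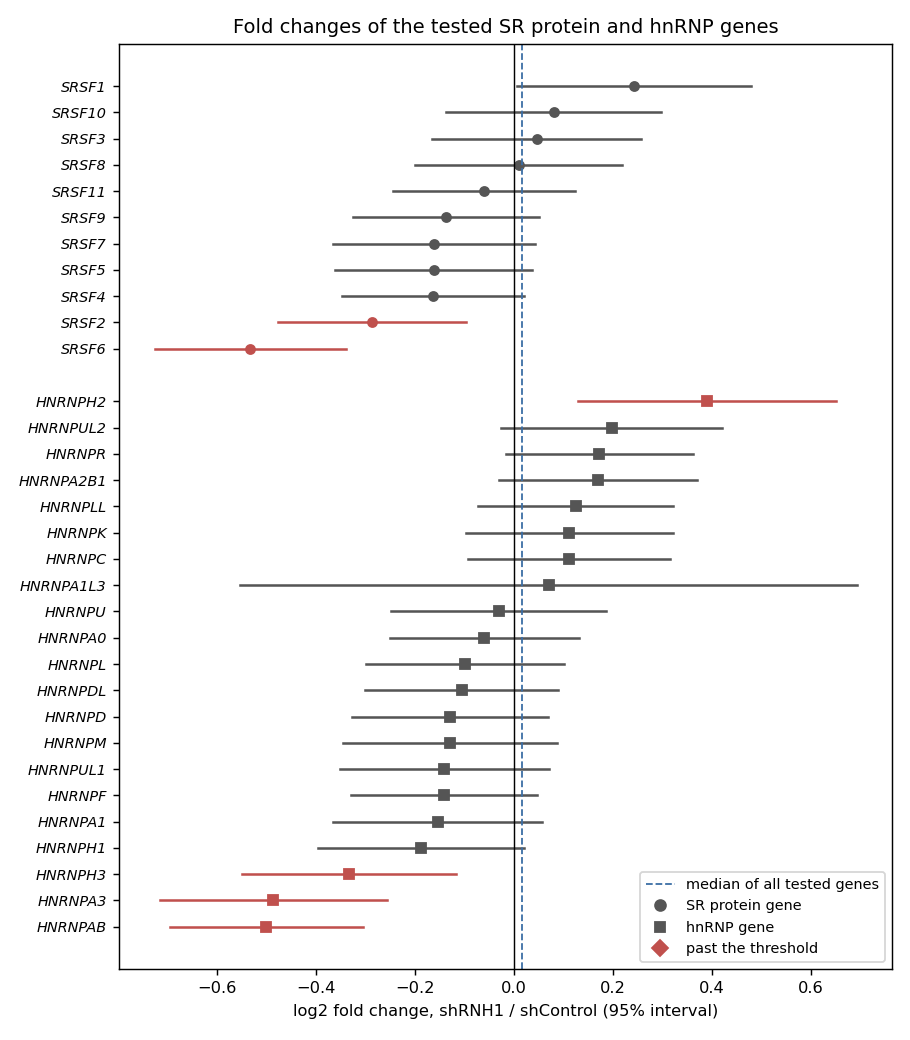
Log2 fold change with its 95% interval for the 32 tested genes, SR proteins (circles) above and hnRNPs (squares) below; red marks genes past the threshold and the dashed line is the median of all tested genes. The intervals of SRSF6, HNRNPAB and HNRNPA3 end at -0.34, -0.31 and -0.26, and most others cross 0.

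The 95% intervals of the TMM-scaled fit bound what was missed under that scaling. They leave out the choice of scaling, which moved SRSF1 from 0.24 to 0.35 with library size alone. For 25 of the 26 tested genes that did not pass, the interval lay within 0.5 on the log2 scale of no change, a fold of 1.41 in either direction, and the exception was HNRNPA1L3. Changes that lie inside a gene's own interval were not excluded for these 26 genes. Before adjustment 3 SR protein genes and 4 hnRNP genes had p below 0.05, 7 of 32, against 37.3% of all tested genes and 50.7% of the most highly expressed group, so this count too was not above the background.

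Promoters are shown for the gene with the largest fall, the hnRNP gene with the largest fall and the single gene that rose. The last of these, HNRNPH2, passed in only 11 of the 18 other settings. The promoters are taken from RefSeq (GRCh38.p14) and differ in GC content. Each is 150 bases that hold no exon of GENCODE 29; for SRSF6 and HNRNPH2 they end at the RefSeq start, and for HNRNPAB they end 26 bases before it. Capitals mark matches on either strand to the CCAAT box, the GC box bound by Sp1 factors (GGGCGG, on the other strand CCGCCC), the TATA box (TATAAA), the ETS family motif (CCGGAAG), the core of the cAMP response element (TGACGT) and the palindromic E-box (CACGTG).
SRSF6 promoter, chr20:43457746-43457895, plus strand: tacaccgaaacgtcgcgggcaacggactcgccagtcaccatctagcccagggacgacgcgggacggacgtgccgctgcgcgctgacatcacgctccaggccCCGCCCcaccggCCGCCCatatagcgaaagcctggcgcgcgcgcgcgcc
HNRNPAB promoter, chr5:178204357-178204506, plus strand: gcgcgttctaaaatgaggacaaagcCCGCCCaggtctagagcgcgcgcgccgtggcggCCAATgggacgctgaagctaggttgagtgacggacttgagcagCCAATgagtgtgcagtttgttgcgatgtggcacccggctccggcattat
HNRNPH2 promoter, chrX:101408072-101408221, plus strand: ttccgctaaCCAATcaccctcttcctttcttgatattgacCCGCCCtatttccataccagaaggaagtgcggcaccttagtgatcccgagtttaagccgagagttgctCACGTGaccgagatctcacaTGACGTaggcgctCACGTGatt
The SRSF6 window is 72% G or C, above the median of all windows, and holds 2 matches to CCGCCC, and the HNRNPAB window (60%) holds 2 of CCAAT and 1 of CCGCCC. This HNRNPAB window leaves out the bases next to the start and is not the one counted in the shares below. In those shares HNRNPAB counted as having CCAAT and TATAAA, and not GGGCGG on either strand. The HNRNPH2 window (50.7%) holds 1 CCAAT, 1 CCGCCC, 1 TGACGT and 2 of CACGTG. Over 43 RefSeq promoter windows of the same length from 29 matched family genes, CCAAT stood in 39.5% (23.5% of all 35116 windows), GGGCGG in 53.5% (36.8%) and TATAAA in 9.30% (6.71%). CCGGAAG stood in 6.98% (6.85%), TGACGT in 13.95% (5.39%) and CACGTG in 13.95% (4.57%). These shares rest on 17, 23, 4, 3, 6 and 6 family windows in the order named, and some genes gave more than 1 window. The comparison windows were not matched for GC content or expression. The median window of the families held 66.7% G or C and 16 CpG, against 60% and 7 over all windows; none of these matches is a tested site.

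Per kilobase of the principal GENCODE transcript, HNRNPC was the most abundant mRNA in shControl at 326 ± 24.3 RPKM (SD, n = 3), followed by HNRNPUL1 (226 ± 28.2) and HNRNPK (185 ± 17.4). HNRNPL (155 ± 3.54) and HNRNPAB (154 ± 14.6) did not differ beyond their spread, nor did the next pair, HNRNPM (138 ± 13.6) and HNRNPF (126 ± 4.81). SRSF2 was the most abundant SR protein mRNA at 97.8 ± 5.30 RPKM, then SRSF9 (73.2 ± 4.42), SRSF4 (41.3 ± 2.13), SRSF1 (35.3 ± 4.27), SRSF10 (33.4 ± 4.93), SRSF6 (31.2 ± 1.67) and SRSF3 (30.0 ± 2.68); among the last 4 no neighbours in this order differed beyond their spread. HNRNPA3 (14.1 ± 2.00), HNRNPH3 (8.68 ± 0.653) and HNRNPH2 (5.93 ± 0.955) stood near the lower end, above HNRNPUL2 (3.17 ± 0.223) and HNRNPA1L3 (0.764 ± 0.197). In shRNH1, HNRNPAB stood at 109 ± 3.44 RPKM, below HNRNPF (114 ± 4.17), and SRSF6 at 21.6 ± 1.93, below SRSF7 (23.1 ± 2.46) by less than the spread. The counts of a gene do not tell its isoforms apart, so these levels rest on 1 transcript length a gene.

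Summed over members, SR protein mRNAs made up 1063 ± 31.7 CPM in shControl and 954 ± 47.7 CPM in shRNH1 (SD, n = 3), or 89.7%, and 97.0% when scaled by library size alone. hnRNP mRNAs made up 4768 ± 229 CPM and 4557 ± 189 CPM, or 95.6% under TMM scaling and 103% by library size alone, so the direction of the hnRNP sum depended on the scaling.

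Libraries of 1 group differed from each other in a way that many members shared. In shControl, replicate 1 was the highest of its group for 22 of the 32 tested genes and replicate 3 the lowest for 21. In shRNH1, replicate 3 was the highest for 20 and replicate 2 the lowest for 23. The median coefficient of variation was 8.59% in shControl and 8.73% in shRNH1. HNRNPAB and SRSF2 departed from this order and were among the 8 genes for which shControl replicate 3 was the highest. The median log2 deviation from the group mean was 0.10 for the members in shControl replicate 1, against -0.01 in the most highly expressed group. In shControl replicate 3 it was -0.09 against 0.05. For shRNH1 it was -0.11 against -0.02 in replicate 2 and 0.08 against -0.02 in replicate 3.

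**Figure D4:**
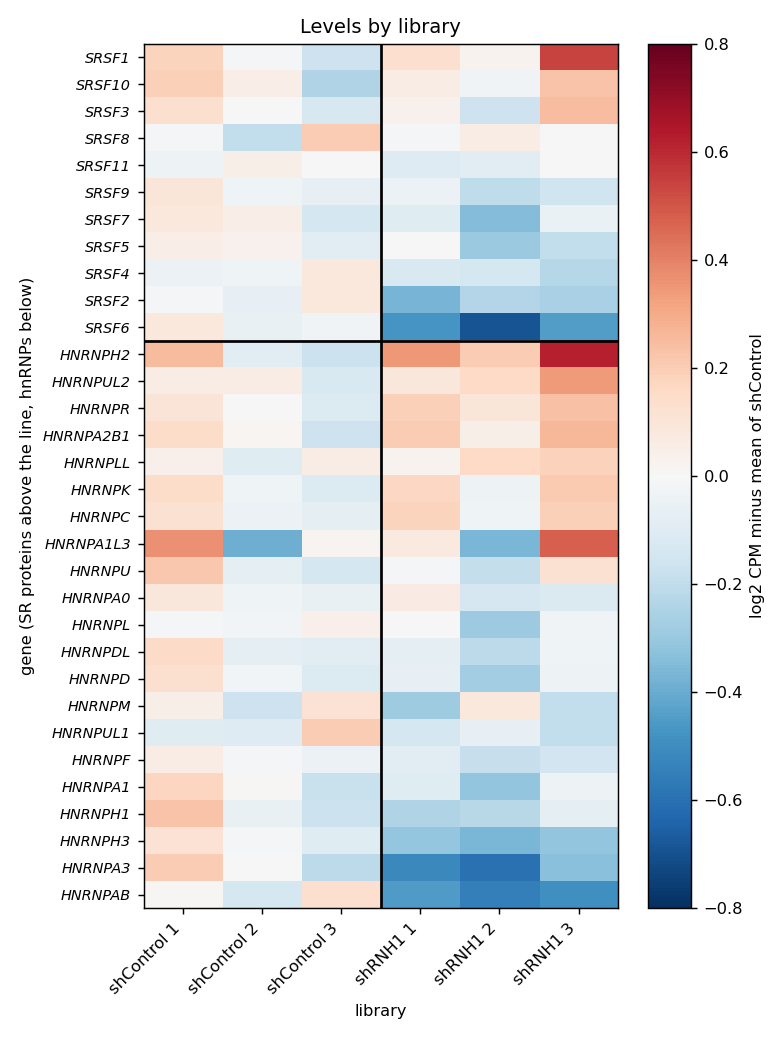
Log2 CPM of each tested gene minus its shControl mean, by library, with SR protein genes above the horizontal line and hnRNP genes below it. The column of shControl 1 is red for most genes and those of shControl 3 and shRNH1 2 are blue for most, while SRSF6, HNRNPAB and HNRNPA3 are blue in all 3 shRNH1 libraries.

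A ratio of 2 members within a library cancels what the members share in that library. For 17 pairs of related genes, chosen after their values were seen, ratios of CPM (not corrected for length) were compared by permuting the 6 libraries in a two-sided exact test. With 3 libraries a group its p cannot go below 0.1, so none could reach 0.05. The groups did not overlap for 9 pairs, each at that smallest p of the exact test (0.189 after Benjamini-Hochberg adjustment over the 17). Pairs with SRSF6, SRSF2, HNRNPA3, HNRNPAB or HNRNPH2 hold a gene that had passed alone, so their separation is not separate evidence. The share of ratios without overlap among other gene pairs was not computed. HNRNPA2B1 to HNRNPA1 was 0.447, 0.457 and 0.460 in shControl and 0.560, 0.584 and 0.562 in shRNH1. Both groups were tight for this ratio, although neither gene passed alone. HNRNPH2 to HNRNPH1 was 0.0889, 0.0856 and 0.0874 in shControl and 0.131, 0.117 and 0.142 in shRNH1. Here the ratios were apart where the CPM of HNRNPH2 were not.

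SRSF6 to SRSF4 was 1.37 ± 0.122 in shControl and 1.06 ± 0.119 in shRNH1 (SD, n = 3), and SRSF6 to SRSF5 was 2.51 ± 0.143 and 1.95 ± 0.150. HNRNPA3 to HNRNPA1 was 0.107 ± 0.00235 and 0.0849 ± 0.00428, and HNRNPAB to HNRNPA1 was 1.03 ± 0.202 and 0.799 ± 0.0607. SRSF1 to SRSF9, SRSF2 to SRSF8 and SRSF3 to SRSF7 were the other ratios without overlap, at 0.607 ± 0.0392 and 0.794 ± 0.165, 6.36 ± 0.550 and 5.14 ± 0.185, and 1.97 ± 0.0627 and 2.28 ± 0.137. HNRNPDL to HNRNPD (0.792 ± 0.0242 and 0.806 ± 0.0231) and HNRNPF to HNRNPH1 (2.32 ± 0.239 and 2.38 ± 0.193) were among the 8 that overlapped.

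Transcript models gave traits of these genes that the symbol rule did not use. All 11 tested SR protein genes have at least 1 GENCODE transcript labelled for nonsense-mediated decay, the pathway that removes mRNAs with a premature stop codon, as do 13 of 21 hnRNP genes (61.9%) and 42.1% of 13366 tested protein-coding genes. A transcript with a retained intron is annotated for 72.7% of SR protein genes, 66.7% of hnRNP genes and 56.7% of protein-coding genes. The median number of annotated transcripts was 9, 11 and 7 in the same order, and a gene with more transcripts can more easily hold either label. Genes of like expression or transcript number were not compared. The median log2 fold change of the hnRNP genes with a decay transcript was -0.10, and of those without one -0.10. Gene counts cannot show whether the share of decay isoforms changed. SRSF6 has 2 annotated transcripts, of which 1 is a decay form, and SRSF2 has 11, of which 2 are decay forms. HNRNPA3 (5 transcripts), HNRNPAB (8), HNRNPH3 (11) and HNRNPH2 (1) have none of this kind. The median GC content of the tested members' longest transcripts was 41.3%, against 49.5% over all tested genes.

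Lists of genes that work with the 2 families gave the setting for these values. Of 10 kinases and importers of SR proteins, which phosphorylate the arginine-serine domain or carry it into the nucleus, 1 fell and none rose. This was TNPO3, the nuclear importer transportin-SR, from 137 ± 4.87 to 114 ± 9.74 CPM, a log2 fold change of -0.26 (adjusted p = 0.0332) that missed the threshold in 7 of 18 other settings. Before adjustment 3 of the 10 had p below 0.05, against 37.3% of all tested genes. SRPK1, the main cytoplasmic SR protein kinase, had -0.19 (adjusted p = 0.113), and CLK1, which releases SR proteins from speckles, -0.05 (0.805); both were picked after their values were seen.

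Of 23 SR-related and SR-like proteins 8 fell and none rose, with a median of -0.20; before adjustment 13 of the 23 had p below 0.05, against 37.3% of all tested genes and 50.7% of the most highly expressed group, which held 12 of the 23. PNN (pinin, a partner of the exon junction complex) had a log2 fold change of -0.76 (adjusted p = 3.6e-06), SRRM1 (SRm160, a splicing coactivator) -0.56, the cyclin CCNL2 -0.46 and LUC7L2, of the U1 particle, -0.42; these 4 passed in all 18 other settings. The related activators TRA2A (0.23) and TRA2B (-0.07), named after their values were seen, did not pass. Of 19 hnRNPs and relatives under other symbols 4 fell and 1 rose, with a median of -0.12. PCBP1 (hnRNP E1) had -0.56, RBMX (hnRNP G) -0.35 and DAZAP1 -0.32, while PCBP3 rose by 1.49 from 0.663 ± 0.0971 CPM. RBMX and DAZAP1 missed the threshold in 2 and 4 of the 18 settings.

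Among 22 tested other regulators of alternative splicing 8 fell and 2 rose, with a median of -0.10. MBNL1 (-0.51) and the epithelial regulator ESRP2 (-0.50) fell, and its relative ESRP1 rose by 0.55. NOVA2, a regulator best known in neurons, rose by 3.12 from 0.120 ± 0.0207 CPM. It had 5, 4 and 5 counts in shControl and 45, 40 and 24 in shRNH1. NOVA2 entered the test only through its shRNH1 counts, and a stricter filter of 1 CPM in 3 libraries left it out. Of 38 core spliceosome genes 14 fell and 1 rose, with a median of -0.24. SF1, which binds the branch point, had -0.54, SF3B4 -0.51, SNRPD1 of the Sm ring -0.44 and SNRNP70 of the U1 particle -0.41, while SNRPN rose by 0.56 (picked after its value was seen). Of 10 factors of nonsense-mediated decay 7 fell and none rose, with a median of -0.33; before adjustment 9 of the 10 had p below 0.05, against the same 37.3% and 50.7%. SMG5 (-0.51), UPF2 (-0.46) and SMG6 (-0.43) were among those that fell. These lists were drawn up with earlier results of these data known, so their counts are descriptions beside the 12.3% of all tested genes that fell and the 15.3% that rose. In the most highly expressed group, which held 26 of the 38 spliceosome genes, 27.7% fell and 12.3% rose.

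**Figure D5:**
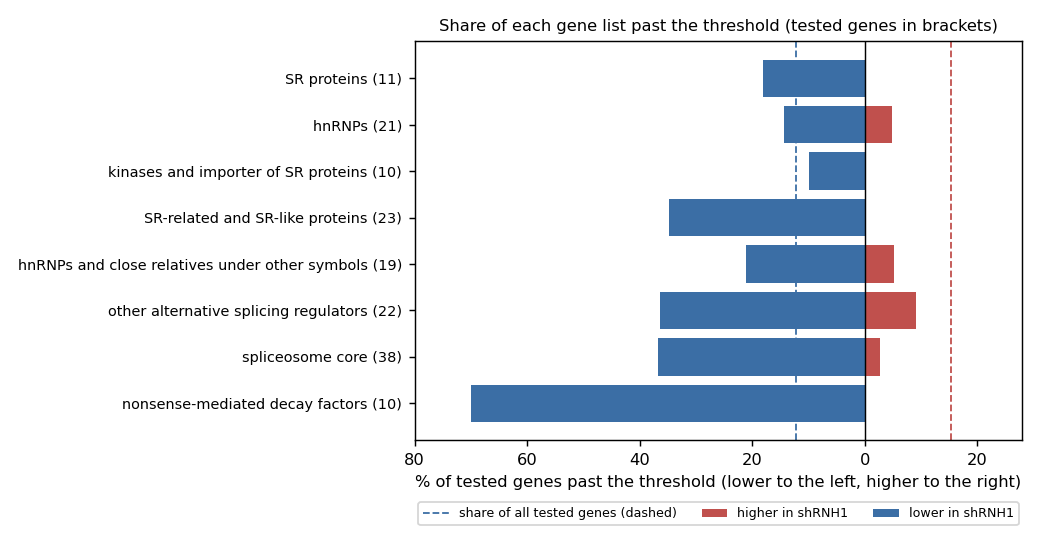
Share of the tested genes of each list that passed the threshold, lower in shRNH1 to the left and higher to the right, with the number of tested genes in brackets and the shares over all tested genes, whatever their expression, as dashed lines. SR proteins (2 of 11 lower) and hnRNPs (3 of 21 lower) lie close to the dashed line at 12.3%, and none of the bars to the right reaches 15.3%.

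Near-identical copies and overlapping genes limit some of these values. Of the 123 pseudogenes 55 had 0 counts in all libraries and 18 were tested. The 3 with most counts were HNRNPA1P7 (-0.02, adjusted p = 0.945), HNRNPCP2 (-0.09, 0.834) and HNRNPA1P49 (-0.02, 0.973). The 74 pseudogenes of HNRNPA1 summed to 3.93% to 5.44% of the CPM of HNRNPA1 in a library, and the 16 of HNRNPA3 to 5.40% to 8.06% of HNRNPA3. The single pseudogene that passed was HNRNPA3P9, named after its values were seen, with -0.95 (adjusted p = 0.0383), and reads of HNRNPA3 and its copies may have been split by the counting. With the strand setting of the counting not stated, reads from stretches shared with a gene on the other strand cannot be told apart. This touches SRSF9, which shares 46.2% of its exon bases with GATC, besides SRSF2 and HNRNPAB above. GATC had 1287 to 1930 counts in a library against 2591 to 3658 for SRSF9. The SRSF9 level and the ratio of SRSF1 to SRSF9 carry this limit. HNRNPU shares 15.6% with COX20, which had 48 to 67 counts in a library, and SRSF1 shares 13.2% with a gene model without a symbol (124 to 162 counts); neither partner passed the test. HNRNPH3 shares 2.14% with RUFY2, and HNRNPA2B1 shares 3.97% with CBX3, which rose by 0.45 on the log2 scale (adjusted p = 0.00066). On the same strand, HNRNPUL2 shares 44.1% with the readthrough gene HNRNPUL2-BSCL2, which had 0 to 5 counts in a library, SRSF1 shares 56.6% with another gene model without a symbol (0 to 4 counts), and HNRNPH2 shares 16.3% with RPL36A-HNRNPH2, which was listed at 0.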

How the data were processed

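Per the labels' protocols, poly(A) RNA was selected from Trizol extracts, and circular single-stranded DNA libraries were sequenced. The authors deposited raw counts per gene, not normalised. HISAT2, StringTie, DESeq2 and GRCh38 are named in the submitters' processing notes; versions, roles, read counter, annotation release and strand use: not given in the sources used here.

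Counts of 6 libraries were fitted with edgeR 4.0.16 in R 4.3.3 (TMM, filterByExpr by group, quasi-likelihood test, no covariate), with Benjamini-Hochberg adjustment over 19682 genes at 0.05. CPM are TMM-scaled, and RPKM divide them by the length of GENCODE 29's principal transcript. Standard errors come from the F statistic, and 95% intervals from its degrees of freedom. Positions, transcript labels and exon overlaps come from GENCODE 29, which held 58207 of the 62700 gene IDs. Where 2 IDs shared the symbol MATR3, the one with more counts was used. The libraries are labelled biological replicates with no word on separate cultures, so p-values measure only the spread between samples, which may be technical. Every pair of replicates differed by more than sampling noise (chi-square of 5.9 to 18.5 per gene).

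Named were all members past the threshold with every library's value, all SR proteins, the 10 most abundant hnRNPs, and up to 4 members past the threshold per list with the smallest adjusted p, of which 1 is not reported here. The members and the lists were chosen with earlier results of these data known. The 18 alternatives were library size alone, other size factors, DESeq2 1.42.0, limma-voom (limma 3.58.1), other filters, a replicate block, offsets (splines of 5 degrees of freedom, MASS 7.3-60.0.1), protein-coding genes alone, thinning, and each replicate left out. The fits were tested on simulated data.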

Additional observations from a re-analysis of the deposited data

How the results depend on the processing

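RNASEH1 kept its direction and its side of the threshold in all 18 alternatives (-2.23 to -2.04), and so did SRSF6, HNRNPAB and HNRNPA3. With library size alone 1433 tested genes were lower, 1 SR protein gene was higher and 1 lower, 3 hnRNP genes were higher, and the medians were -0.027 (SR proteins) and 0.013 (hnRNPs). With the offset for expression level 1 SR protein gene was past the threshold, 1 was lower, 2 hnRNP genes were higher, and the hnRNP median was 0.029. DESeq2 and the offset for GC content and length each left 0 hnRNP genes higher. Without 1 replicate at a time, SR protein genes past the threshold ranged from 1 to 3 (higher 0 to 1, lower 1 to 2) and hnRNP genes from 2 to 4 (higher 0 to 1). The causes were not tested, apart from the fewer samples when a replicate is left out.

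With a replicate block 1 SR protein gene was past the threshold and 1 was lower, since SRSF2 missed it (adjusted p = 0.0644), and TNPO3 missed it too (0.0847); the block changed no other call of a gene named with alternatives. The deviations of same-numbered libraries correlated at 0.05, 0.06 and -0.05, so no pairing by number was seen. This cannot show whether same-numbered cultures were handled together. With 31394687 to 41103220 counts a library, the 6 members with 0 to 2 counts in a library could not be tested.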
